A study of Mus musculus with 3 samples.

Results

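The genes described here are 10 protein tyrosine phosphatases of mouse regulatory T cells: the receptor-type genes Ptprc, Ptprj, Ptpre and Ptpra and the non-receptor genes Ptpn1, Ptpn2, Ptpn6, Ptpn7, Ptpn11 and Ptpn22. They were taken by name from the 22457 genes of the count files, and all 10 were found. The cells were primary regulatory T cells of adult mice aged 4 months, profiled by polyA plus RNA-seq in 3 libraries. The labels give no genotype, strain or treatment, record the sex as not collected and name haematopoietic cells of the bone marrow as the origin of the cells. They describe the 3 libraries as technical replicates 1, 2 and 3 of 1 biological replicate, so there was 1 group and no condition to compare. Some counts differed more between the libraries than this label leads one to think: Igha, an immunoglobulin heavy chain gene, had 4, 1007 and 149 counts in libraries 1, 2 and 3, Igkv19-93, a light chain gene, had 301, 13 and 9, and the globin gene Hbb-bs had 0, 167 and 145. These 3 genes were chosen after their values were seen. Every SD below is the spread between the libraries (n = 3 throughout), and whether it holds a spread between animals or cell preparations cannot be told. How the cells were isolated is not given in the sources used here.

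Protein tyrosine phosphatases remove phosphate from tyrosines and so oppose the tyrosine kinases that carry signals from the T cell receptor and from cytokine receptors. Their catalytic domain holds a cysteine that attacks the phosphate, set in a short signature that all active members of the classical family share. Some act as brakes and others as enablers. CD45, the product of Ptprc, removes an inhibitory phosphate from the kinase Lck and so keeps it ready to signal, whereas Ptpn22 and Ptpn6 (SHP-1) dampen receptor signals, Ptpn2 acts on Janus kinases below cytokine receptors, and Ptpn7 acts on MAP kinases.

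The coding stretch around the cysteine of this signature is shown for most of the described genes. It is what makes them 1 family, while its letters differ from gene to gene. Each sequence has 33 bases, read 5′ to 3′ on the coding strand of the GENCODE M21 transcript with the longest coding sequence. The capitals mark the codon of the signature cysteine.
Ptprc: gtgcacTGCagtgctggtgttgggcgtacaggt
Ptprj: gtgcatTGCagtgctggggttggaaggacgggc
Ptpre, domain 1: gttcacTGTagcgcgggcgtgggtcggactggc
Ptpre, domain 2: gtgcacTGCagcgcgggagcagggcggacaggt
Ptpra, domain 1: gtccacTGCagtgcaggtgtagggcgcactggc
Ptpn1: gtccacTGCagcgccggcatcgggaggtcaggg
Ptpn6: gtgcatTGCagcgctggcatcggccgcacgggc
Ptpn7: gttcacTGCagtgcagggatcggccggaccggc
Ptpn11: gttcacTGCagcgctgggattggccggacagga
Ptpn22: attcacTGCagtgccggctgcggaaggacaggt

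A search of the translated coding sequences for this signature (histidine, cysteine, any pair of residues, glycine, any residue, glycine, arginine) found 12 matches in the 10 genes. The genes with 2 matches were Ptpre and Ptpra, and the other 8 had 1. Ptprc also carries tandem phosphatase domains, but only 1 stretch of it held this pattern. The cysteine is encoded by TGT in the first domain of Ptpre and by TGC in the other sequences shown. The stretch crosses an exon junction in 10 of the 12 matches. In GRCm38 it lies at chromosome 1, 138080249 to 138080847 (minus strand, exons 24 and 25) in Ptprc, at chromosome 3, 103876727 to 103877326 (plus strand, exons 8 and 9) in Ptpn22, and at chromosome 6, 124722057 to 124724967 (minus strand, exons 11 and 12) in Ptpn6. In Ptpn1 it lies within exon 6, at chromosome 2, 167974204 to 167974236 (plus strand). Between the first matches of the genes other than Ptpn2, which was not compared, identical bases ranged from 21 of 33 (Ptpn6 or Ptpra against Ptpn22) to 28 of 33 (Ptpn7 against Ptpn11).

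The pairs of members compared here differ over the coding bases that align. Aligned coding bases were identical at 64.1% between Ptpn6 and Ptpn11, 64.8% between Ptpn1 and Ptpn2, 70.3% between Ptpre and Ptpra and 61.1% between Ptprc and Ptprj. No stretch of 50 coding bases was shared between any of the 10 genes. Ptprc, Ptpn1, Ptpn2, Ptpn7, Ptpn11 and Ptpn22 shared no such stretch with an annotated transcript of any other gene. In Ptprj 10.2% of these stretches also occur in the pseudogenes Gm13767, Gm13768 and Gm18953, and its count is uncertain to that extent. Antisense transcripts cover 8.71% of the stretches of Ptpn6, 4.18% of those of Ptpra and 1.80% of those of Ptpre, and without a stated strand setting their reads cannot be told apart. The length of the reads is not given in the sources used here. In stretches of 30 bases Ptpre and Ptpra shared 1, and Ptpn7 shared 1 with Ptpn5. The part also found in other genes was then 14.1% for Ptprj, 9.745% for Ptpn6, 7.44% for Ptpra and 3.71% for Ptpre.

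The libraries held 3206781, 3228215 and 2872350 counts on genes. Levels across libraries are given in CPM, counts per 1000000 counts of the library. Levels that compare different genes are given per kb of coding sequence, scaled to sum to 1000000 over all genes, and are called length-scaled levels. All 7 regulatory T cell markers checked (Foxp3, Il2ra, Ctla4, Ikzf2, Tnfrsf18, Cd4 and Cd3e) exceeded 5 CPM in every library, and their median was 386 CPM. Markers of other cells were not equal between libraries. The summed level of 6 B cell markers was 235, 297 and 390 CPM in libraries 1, 2 and 3, that of 4 plasma cell markers 38.4, 449 and 112 CPM, that of 5 myeloid markers 40.2, 25.4 and 54.3 CPM, that of 6 neutrophil markers 1.25, 78.4 and 9.40 CPM and that of 5 erythroid markers 8.11, 171 and 147 CPM. CD8 T cell markers (2 genes) summed to 27.8, 34.4 and 39.0 CPM, and NK cell markers (3 genes) to 8.42, 12.1 and 24.0 CPM. Markers at 0 were S100a8, S100a9, Ltf, Elane, Hbb-bs, Hba-a1, Hbb-bt, Sdc1 and Ncr1 in library 1 and Camp, Elane, Sdc1 and Fcgr1 in library 3, and no marker was at 0 in library 2. In bulk RNA such as this, fewer cells of a type and less RNA per cell cannot be told apart.

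All 10 phosphatases were expressed in every library, over a range of more than 100-fold. Their mean levels ran from 14.5 CPM (Ptprj) to 2207 CPM (Ptprc), with a median of 259.8 CPM, beside a median of 18.5 CPM over the 15112 genes with a count. Together they held 0.466%, 0.447% and 0.477% of the counts of libraries 1, 2 and 3 (95% exact binomial intervals 0.459 to 0.474%, 0.4399 to 0.455% and 0.469 to 0.485%, covering counting error only). Ptprc alone made up 47.6 ± 1.69% of the counts of the 10 genes.

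**Figure D1:**
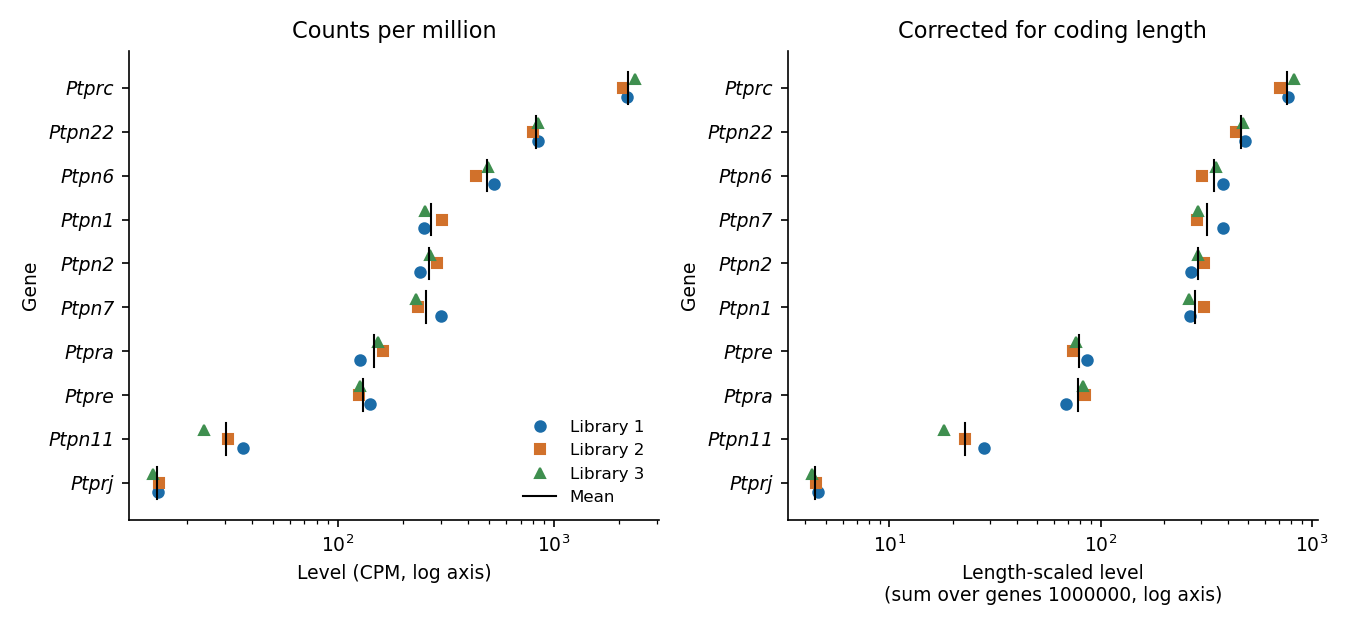
Levels of the 10 phosphatase genes in the 3 libraries, in CPM (left) and as length-scaled levels (right), both on log axes; points are libraries and the vertical bar is their mean. Ptprc and Ptpn22 lead on both scales and Ptpn11 and Ptprj come last, while on the right the range of Ptpn6 overlaps that of Ptpn7.

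Among the receptor-type genes, Ptprc stood far above the others. Ptprc (ENSMUSG00000026395, chromosome 1, 138062861 to 138175708, minus strand) encodes CD45, the abundant surface phosphatase of all nucleated blood cells. It had 6994, 6710 and 6786 counts in libraries 1, 2 and 3, or 2181, 2079 and 2363 CPM, the highest level of the 10 genes. Ptprc exon use, which sets the CD45 isoforms, cannot be read from counts per gene. Its length-scaled level was 765 ± 58.1, which ranked 50 among the genes with at least 300 coding bases.

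Ptpra and Ptpre encode related receptor phosphatases with short extracellular parts, and PTP alpha, the product of Ptpra, can activate Src family kinases. Ptpra (chromosome 2, 130450278 to 130556124, plus strand) had 405, 520 and 441 counts, or 126, 161 and 154 CPM. Ptpre (chromosome 7, 135537481 to 135686293, plus strand) had 449, 405 and 364 counts, or 140.0, 126 and 127 CPM. The ranges of these genes overlapped, and their length-scaled levels were 78.5 ± 8.33 and 79.1 ± 6.43. The log2 ratio of Ptpre to Ptpra per coding length was 0.014 ± 0.27, with 0.33 in library 1, -0.18 in library 2 and -0.10 in library 3, so that Ptpre was above Ptpra in library 1 and below it in the others.

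Ptprj encodes CD148, a receptor phosphatase with a large ectodomain that, like CD45, can act on Src family kinases. Ptprj (chromosome 2, 90429754 to 90580647, minus strand) was the lowest member with 47, 48 and 40 counts, or 14.7, 14.9 and 13.9 CPM. At a length-scaled level of 4.46 ± 0.155 it stood far below Ptprc, whose log2 ratio to it was 7.42 ± 0.14, a factor of 171. The lowest of the libraries gave 7.30. Per length of merged exons the factor was 69.4. Ptprc had 1.76 counts per coding base, with 50 of 21140 genes of at least 300 coding bases above it and the highest of them at 2.56, and whether an upper limit on such counts lowers its level and this factor was not tested.

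The non-receptor genes were led by Ptpn22 and Ptpn6, both negative regulators of T cell receptor signals. Ptpn22 (chromosome 3, 103859795 to 103912247, plus strand) encodes LYP or PEP, which acts on Lck and Zap70 and binds the kinase Csk. It had 2704, 2583 and 2413 counts, or 843, 800.1 and 840.1 CPM, and a length-scaled level of 463 ± 22.7. Ptpn6 (chromosome 6, 124720707 to 124738714, minus strand) encodes SHP-1, a cytosolic phosphatase with paired SH2 domains that docks on inhibitory receptors. It had 1692, 1405 and 1427 counts, or 528, 435 and 497 CPM, lowest in library 2, and a length-scaled level of 344 ± 40.3.

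Ptpn11, the closest relative of Ptpn6, was low. It encodes SHP-2, which in many cells promotes signalling to Ras and which also binds the inhibitory receptor PD-1. Ptpn11 (chromosome 5, 121130533 to 121191397, minus strand) had 117, 100 and 69 counts, or 36.5, 31.0 and 24.0 CPM, with a length-scaled level of 22.9 ± 4.94. Per coding length the log2 ratio of Ptpn6 to Ptpn11 was 3.92 ± 0.31, a factor of 15.2. Library 3 gave the highest value, 4.28, against 3.77 and 3.73 in the others. Per length of the whole transcript the log2 ratio was 5.27, in the same direction. Ptpn6 had 0.792 counts per coding base and Ptpn11 0.0532. Whether an upper limit on such counts lowers the factor of 15.2 was not tested.

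Ptpn1, Ptpn2 and Ptpn7 formed a middle tier with overlapping ranges. Ptpn1 encodes PTP1B, known for acting on the insulin receptor and on Janus kinases, and Ptpn2 encodes TCPTP, which acts on Jak1, Jak3 and Stat proteins. Ptpn1 (chromosome 2, 167932057 to 167979385, plus strand) had 806, 978 and 726 counts, or 251, 303 and 253 CPM. Ptpn2 (chromosome 18, 67665511 to 67724595, minus strand) had 770, 932 and 765 counts, or 240.1, 289 and 266 CPM. Library 2 was the highest for both. Their log2 ratio per coding length was -0.047 ± 0.083, smaller than its spread over the libraries. Per length of the whole transcript it was -0.64, and per length of merged exons -0.80, so whether Ptpn2 exceeded Ptpn1 rests on the length used.

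Ptpn7 encodes the haematopoietic phosphatase HePTP, which removes phosphate from MAP kinases. Ptpn7 (chromosome 1, 135132700 to 135145317, plus strand) had 960, 754 and 663 counts, or 299, 234 and 231 CPM, so that library 1 stood above the other libraries. Its length-scaled level was 318 ± 54.5.

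In order of length-scaled levels the genes were Ptprc (765), Ptpn22 (463), Ptpn6 (344), Ptpn7 (318), Ptpn2 (288), Ptpn1 (279), Ptpre (79.1), Ptpra (78.5), Ptpn11 (22.9) and Ptprj (4.46). Ranges over the libraries did not overlap between Ptprc and Ptpn22, Ptpn22 and Ptpn6, Ptpn1 and Ptpre, Ptpra and Ptpn11, or Ptpn11 and Ptprj. The neighbours from Ptpn6 to Ptpn1, and Ptpre with Ptpra, overlapped and are not ordered. The 4 receptor-type genes held 35.1 ± 1.58% of the summed length-scaled level of the 10 genes. With merged exons as the length, Ptpn6 (654 ± 75.8) came first, ahead of Ptpn22 (460 ± 22.2) and Ptprc (453 ± 35.0). Which exons entered the counts is not given in the sources used here. Of the 22195 genes matched to the annotation 21352 are protein-coding, and coding length was taken as the main scale.

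The 10 genes, chosen with earlier results of these data known, held most of the counts on the matched genes of the classical family. Of 28 other classical phosphatase genes 27 were matched, all but Ptprv, and 11 reached 1 CPM in every library (9 reached 5 CPM). The 10 described genes held 88.8 ± 0.518% of the counts on the 37 matched genes, and the 27 others summed to 613, 579 and 569 CPM in libraries 1, 2 and 3. The median level of the 27 was 0.647 CPM. Whether an upper limit on counts per coding base lowers the share of the 10 was not tested.

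**Figure D2:**
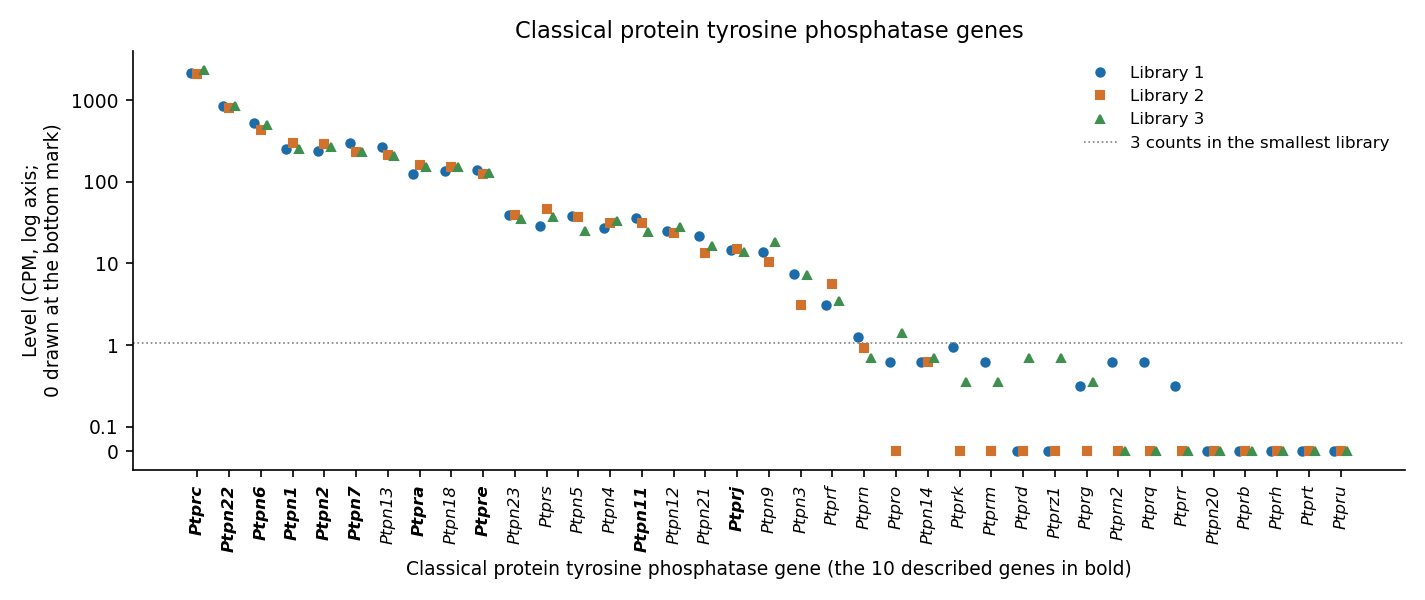
Level in CPM (log axis, with 0 drawn at the bottom mark) of 37 classical phosphatase genes in 3 libraries, the 10 described genes in bold; the dotted line marks 3 counts in the smallest library. The first 6 genes all belong to the 10, Ptpn13 and Ptpn18 stand beside Ptpra and Ptpre, and 16 genes lie near or at 0.

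Among the others Ptpn13, which encodes a very large phosphatase with PDZ domains, reached 231 ± 32.7 CPM, above Ptpra, Ptpre, Ptpn11 and Ptprj. Its coding sequence is long, and its length-scaled level of 41.7 ± 6.69 was below those of Ptpra and Ptpre. Ptpn18, which encodes a PEST-type phosphatase, stood at 146 ± 9.93 CPM and 141 ± 7.43 per coding length, above Ptpra and Ptpre on that scale. Ptpn23 and the receptor gene Ptprs followed at 37.7 ± 2.22 and 37.7 ± 8.73 CPM, and Ptpn5 had 33.6 ± 7.43 CPM. No count was seen in any library for Ptprb, Ptprh, Ptprt, Ptpru and Ptpn20, and a count of 0 allows up to 0.936, 0.929 and 1.04 CPM in libraries 1, 2 and 3. Another 11 genes had 1 to 9 counts in all.

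Partners and substrates of these phosphatases were present as well. Of 17 genes in a list of kinases, adaptors and substrates, 16 were above 5 CPM in all 3 libraries (median of the 17 genes 154 CPM). The adaptor gene Gab2 was not, with 3, 2 and 1 counts. Among the highest were Jak1 (1435 ± 82.3 CPM), Lck (1006 ± 46.5 CPM) and Zap70 (511 ± 39.4 CPM), targets of Ptpn2, Ptprc or Ptpn22. Csk, the kinase that Ptpn22 binds, stood at 282 ± 23.9 per coding length. The log2 ratio of Ptpn22 to Csk was 0.72 ± 0.19, and the libraries gave 0.86, 0.50 and 0.79. The MAP kinase gene Mapk3, whose product Ptpn7 acts on, was lower than Ptpn7 by a log2 ratio of 3.35 ± 0.30 per coding length. These partner ratios were taken per coding length only. Per length of merged exons Ptpn7 stood at 157 ± 26.5, against 318 ± 54.5 per coding length. Ptpn7 had 0.736 counts per coding base and Mapk3 0.0718, and whether an upper limit on such counts lowers their ratio was not tested. Ptprcap, which encodes a protein that binds CD45, had a length-scaled level of 848 ± 42.5, but 99.6% of its 50-base coding stretches also lie in transcripts of Rps6kb2, and its count is uncertain.

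Receptors that recruit SHP-1 or SHP-2 were all detected. The 10 genes of this list reached 1 CPM in every library, 7 reached 5 CPM, and the median was 74.2 CPM. Cd5, a dampening receptor of T cells, led with 661 ± 22.2 CPM, ahead of Pecam1 with 361 ± 47.6 CPM, Pdcd1, which encodes PD-1, with 245 ± 35.7 CPM and Cd72 with 149.5 ± 28.5 CPM. Btla, which encodes a further inhibitory receptor, stood at 96.1 ± 10.7 CPM. Cd22, Cd72 and Siglecg are best known from B cells, and Cd22 is also 1 of the 6 B cell markers summed above. That sum was highest in library 3 and lowest in library 1, whereas Cd22 stood at 53.6, 51.1 and 51.9 CPM and Cd72 at 154, 119 and 175.5 CPM in libraries 1, 2 and 3. Siglecg had 12.5, 17.7 and 20.5 CPM.

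The libraries were then compared for each gene. A chi-square test of the 3 counts against Poisson expectation was fitted to all 10282 genes with a mean count of at least 10, with Benjamini-Hochberg adjustment over all of them. Of the 10 phosphatases 7 passed an adjusted p of 0.05, beside 27.6% of all genes tested. The test is sharper for genes with more counts. Among genes with a mean count of 10 to 100, where Ptprj and Ptpn11 lie, 15.2% passed, and from 100 to 500 (Ptpra and Ptpre) 29.9%. Among genes with a mean count of 500 to 1000, where Ptpn1, Ptpn2 and Ptpn7 lie, 44.6% passed. Between 1000 and 2000 counts (Ptpn6) 55.8% passed, and from 2000 counts on (Ptprc and Ptpn22) 76.6%. The differences were small. The highest library exceeded the lowest by a median of 1.17-fold over the 10 genes and 1.25-fold over all genes tested, most of which have lower counts. Against the median of all genes in the same range of counts 7 of the 10 lay above it. That median was 1.46-fold from 10 to 100 counts (Ptpn11 above, Ptprj below), 1.22-fold from 100 to 500 (Ptpra above, Ptpre below) and 1.15-fold from 500 to 1000 (Ptpn1, Ptpn2 and Ptpn7 above). It was 1.13-fold from 1000 to 2000 (Ptpn6 above) and 1.12-fold from 2000 on (Ptprc above, Ptpn22 below).

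**Figure D3:**
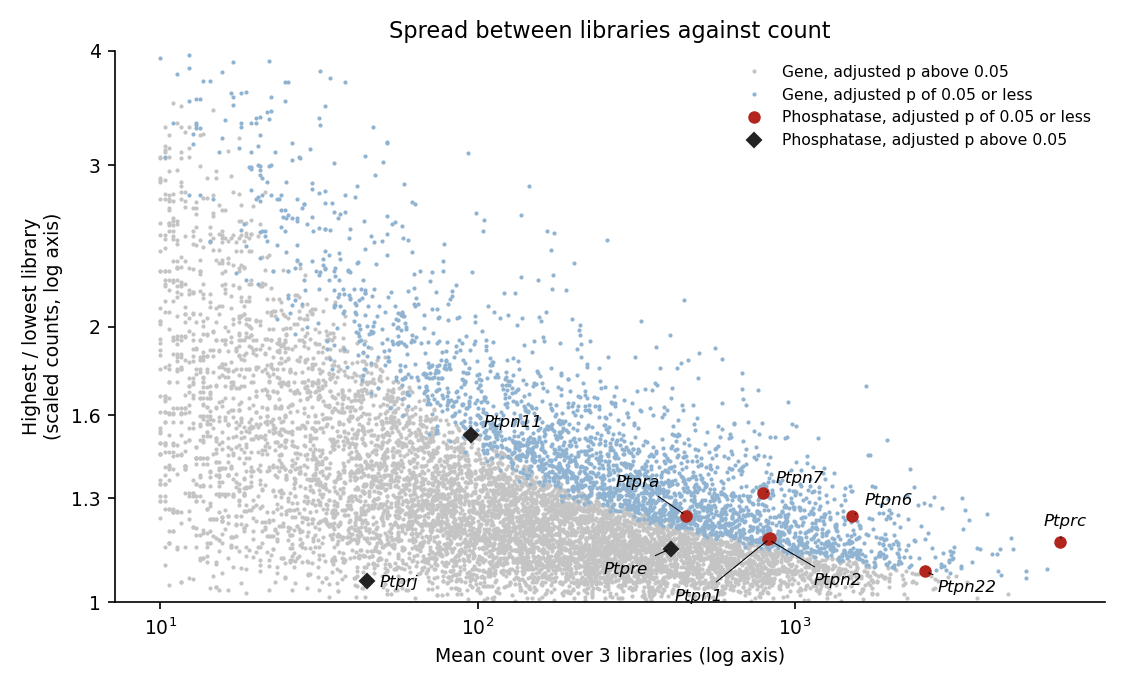
Spread of scaled counts, given as highest over lowest library, against the mean count over 3 libraries (log axes), for genes tested with a ratio up to 4; blue and red points passed an adjusted p of 0.05, grey points and black diamonds did not, and the 10 phosphatases are named. Not drawn are 109 genes with a larger ratio or a library at 0. The phosphatases lie between 1.06 and 1.52, among other genes of like count.

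In scaled counts Ptpn6, Ptpn7 and Ptpn22 were highest in library 1 and lowest in library 2 (3 genes, beside 11.1% of all genes tested that passed with library 1 highest). The widest difference of these was that of Ptpn7, at 1.32-fold (95% exact binomial interval 1.19 to 1.45). Its adjusted p in the chi-square test was 3.84e-08. The libraries in each interval of this kind, here and below, were picked as highest and lowest after the counts were seen. These intervals therefore lean towards larger differences, with coverage below 95%. Ptpn6 differed by 1.24-fold (1.16 to 1.34, adjusted p = 2.05e-07, chi-square). Ptpn22 differed by 1.08-fold (1.02 to 1.14, adjusted p = 0.0323, chi-square), and with plain totals as library sizes it did not pass (adjusted p = 0.221). Part of the order of libraries in these genes rests on near ties. Ptpn22 had 2642 scaled counts in library 1 and 2624 in library 3. Ptpn7 had 713 in library 2 and 721 in library 3, and in CPM it was lowest in library 3 (230.8, against 233.6 in library 2).

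Ptpn1, Ptpn2 and Ptpra were, also in scaled counts, highest in library 2 and lowest in library 1 (3 genes, beside 8.71% of all genes tested that passed with library 2 highest). Ptpra differed by 1.24-fold (95% exact binomial interval 1.09 to 1.42), with a chi-square adjusted p of 0.0123. Ptpn1 differed by 1.18-fold (1.07 to 1.29, adjusted p = 0.00374) and Ptpn2 by 1.17-fold (1.06 to 1.29, adjusted p = 0.0224) in the same chi-square test. For Ptpn1 libraries 1 and 3 were nearly tied, at 787.6 and 789.6 scaled counts. Ptpra had 395.7, 491.9 and 479.6 scaled counts in libraries 1, 2 and 3. Library 2 is also the one with the highest plasma cell, neutrophil and erythroid sums, and the part of these cells in the results was not tested.

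Ptprc was highest in library 3, at 1.16-fold its level in library 2 (95% exact binomial interval 1.12 to 1.20). Its chi-square adjusted p was 2.48e-15, and 7.75% of all genes tested passed with library 3 highest. Its unscaled count was highest in library 1. Unscaled counts of the 86 genes with 1.6 or more counts per coding base, Ptprc among them, hardly differed between libraries 3 and 1 (median log2 ratio -0.028), against -0.21 in genes under 0.2 counts per coding base. For Ptprc this ratio was -0.044, while that of the library totals was -0.16. Whether an upper limit on counts per coding base has a part in the result for Ptprc was not tested. Ptpn22 had 1.07 counts per coding base, Ptpn1, Ptpn2, Ptpn6 and Ptpn7 had 0.646 to 0.792, and the other 4 had 0.183 or fewer. The summed levels of B cell, myeloid, CD8 T cell and NK cell markers were highest in library 3, though not those of every marker (Cd22 had 53.6, 51.1 and 51.9 CPM). The sums of plasma cell and neutrophil markers were highest in library 2, where Ptprc was lowest. These cells also carry CD45, and their part in the result was not tested.

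**Figure D4:**
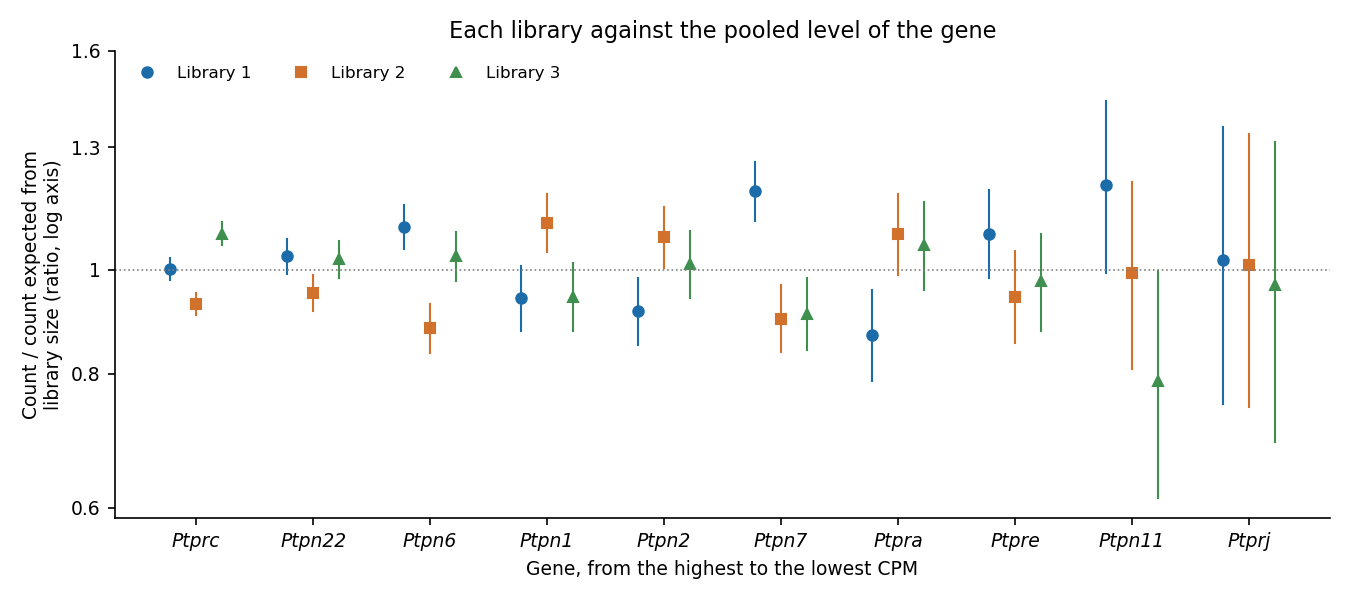
Count of each phosphatase in each library divided by the count expected from library size (totals times TMM factors) at the gene's pooled level, on a log axis; lines are 95% exact Poisson intervals, which cover counting error only. Library 2 is low for Ptprc, Ptpn22 and Ptpn6 and high for Ptpn1 and Ptpn2, and library 1 is high for Ptpn7.

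Ptpre, Ptpn11 and Ptprj did not pass. Ptpn11 had the widest spread, 1.52-fold between libraries 1 and 3 (95% exact binomial interval 1.12 to 2.08, for libraries picked after the counts were seen). Its chi-square adjusted p was 0.0656 at a mean of 95.3 counts. Ptpre differed by 1.15-fold (0.999 to 1.31, adjusted p = 0.236). Ptprj differed by 1.06-fold with a wide interval (0.678 to 1.65, adjusted p = 0.979), so that at 45.0 counts on average a difference as large as that of Ptpn7 lay within its interval.

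None of the 10 genes passed when a spread common to all genes was allowed for. That spread was estimated over all genes tested, so it does not say what is typical at the counts of the 10. In scaled counts 7 of the 10 spread more than the median gene of like count. With a negative binomial model that allows a coefficient of variation of 12.5%, estimated from the same libraries and common to all genes, 0 of the 10 passed an adjusted p of 0.05, beside 0.914% of all genes tested, and 0 had an unadjusted p under 0.05. In the Poisson test 8 of the 10 had an unadjusted p under 0.05, beside 38.6% of all genes tested. Without library 2 only Ptprc and Ptpn7 of the 10 passed the Poisson test, beside 9.38% of all genes tested. Without library 1 Ptprc, Ptpn1 and Ptpn6 passed, beside 16.5%, and without library 3 the same 7 as with all libraries, beside 19.5%.

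The partner genes were read from the same fit. For all 3 lists the share of all genes tested that passed was 27.6%, and by mean count it ran from 15.2% (10 to 100 counts) to 76.6% (2000 or more). Of 16 kinases, adaptors and substrates tested 9 passed the Poisson test, 4 of them with library 3 as the highest, 3 with library 2 and 2 with library 1. Jak3, a substrate of Ptpn2, had the smallest p and was highest in library 2 with 654, 899 and 540 counts (1.45-fold, adjusted p = 3.88e-11, chi-square). Jak1 and Themis, whose product binds SHP-1, were highest in library 3 by 1.14- and 1.39-fold over the lowest library, and Jak1 had 1.28 counts per coding base. Stat5a and Stat5b were highest in library 1 by 1.40- and 1.42-fold over library 3. Of the 10 receptors 5 passed, with Pecam1 and Btla highest in library 1, Pdcd1 in library 2 and Cd5 and Cd72 in library 3. The largest of these was Cd72, with 494, 384 and 504 counts (1.51-fold, adjusted p = 1.91e-07, chi-square). Of 11 other classical phosphatases tested 3 passed, Ptpn13 and Ptpn5 highest in library 1 and Ptprs in library 2, the largest of these being Ptprs with 93, 150 and 108 counts (1.56-fold, adjusted p = 0.0161, chi-square). None of the genes in these 3 lists passed the negative binomial model at an adjusted p of 0.05.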

How the data were processed

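Counts per gene were deposited by the authors as 1 whole-number column per library, on assembly mm10 with GENCODE M4, per the file headers and notes deposited with them. No source used here gives the aligner, counter, strand setting or duplicate handling. Identifiers were stripped of their version and matched to GENCODE M21 (GRCm38), which gave names, positions and lengths for 22195 of 22457 genes. Coding length was the merged coding sequence of a gene. The 10 genes, the lists and the tests were chosen with earlier results of these data known.

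Counts of each gene were compared between libraries with Pearson's chi-square against Poisson expectation (2 degrees of freedom, mean count of at least 10, Benjamini-Hochberg). Library sizes were totals times TMM factors from edgeR 4.0.16 in R 4.3.3. P-values measure the spread between libraries labelled as technical replicates. From each list the 4 highest genes, up to 6 that passed the test with the smallest p, and genes with no count were named. Gab2, Cd22, Siglecg and the partners compared with single phosphatases were named by function or after their values were seen. Some genes these rules name, and some sequences, are not reported here. Alternatives tried were plain totals, size factors of DESeq2 1.42.0, no count filter, the negative binomial model, other lengths, thinning, a threshold of 5 CPM and leaving out each library. Sequences came from GENCODE M21 transcripts, were aligned with Biopython 1.88, and were compared in stretches of 30 and 50 bases. The length of the whole transcript was added as an alternative after seeing the data. Python 3.11.15, scipy 1.17.1 and matplotlib 3.10.9 were used.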

Additional observations from a re-analysis of the deposited data

How the results depend on the processing

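The number of the 10 phosphatases past the chi-square test was 7 under DESeq2 size factors and without a count filter, 6 with plain totals, 0 under the negative binomial model, and 2 to 7 when 1 library was left out. The number of all genes past it was 2836, fell to 94 under the negative binomial model and ranged from 960 to 2014 when 1 library was left out, lowest without library 2. The cause was not tested. The log2 ratio of Ptpn6 to Ptpn11 was 5.43 per merged exon length and 5.27 per transcript length. That of Ptprc to Ptprj was 6.12 per merged exon length, 7.84 per transcript length and 7.25 with no length correction. That of Ptpn1 to Ptpn2 was -0.80 per merged exon length and -0.64 per transcript length. The lengths divided by differ between these settings, and the counts do not. The median level of the 10 genes moved by less than its spread under TMM sizes and thinning, and lay between 253 and 265 CPM when 1 library was left out. The sequencing depth limits Ptprj and Ptpn11, whose intervals span 0.678 to 1.65 and 1.12 to 2.08. No paired analysis was possible because there is only 1 group.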
